A study of Mus musculus with 12 samples.

Results

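The 421 regions described here are transposable element (TE) copies that contain the first base of at least 1 annotated transcript of a protein-coding gene, on the strand of the copy. They were found by placing the transcript starts of GENCODE M21 (GRCm38) on the 298593 TE copies of the deposited TE table, and they make up 0.141% of that table. The copies lie at starts of 408 genes, 11 of which have 2 such copies and 1 of which, Cux2, has 3. The choice used position and strand, not expression, although a copy must hold at least 10 reads over the 6 libraries to be in the table at all. The libraries are RNA-seq of male germ cells (gonocytes) isolated from the testis at postnatal day 0, 3 from Morc1 (+/-) animals, called het, and 3 from Morc1 (-/-) animals, called KO. The mice are described as carrying the transgene Mvh-Venus, a reporter of the germ cell gene Mvh (Ddx4), and the reference group is heterozygous, not wild type. Libraries of postnatal day 3 are named in the labels and were not analysed here. The labels do not say whether the 3 libraries of a genotype came from separate animals, so p-values measure the spread between these libraries, which may in part be technical.

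Transposable elements carry their own regulatory sequence. The long terminal repeats of endogenous retroviruses and the promoters of LINE-1 elements can start transcription, and some have become promoters of cellular genes, with the element forming the first exon. In male fetal germ cells DNA methylation is erased and laid down again, and TEs are silenced there by DNA methylation, histone H3 lysine 9 methylation and the PIWI pathway. MORC1 is a nuclear GHKL-type ATPase needed in male mouse germ cells for silencing of TEs.

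Most of the copies were short and held only some of the starts of their gene. The median length was 392 bp, against 375 bp over all listed copies, with quartiles of 289 and 540 bp and a range from 44 to 7146 bp. In 27 copies all annotated transcripts of the gene began in the copy, and in 394 only some did. At least 1 started transcript was itself annotated as protein-coding for 218 copies, and for 203 none was. The transcript used to describe those copies was a processed transcript, a retained intron or, for 6 copies, one annotated as subject to nonsense-mediated decay. The copy held the most upstream start of its gene in 150 cases. The stretch of first exon inside the copy had a median of 101 bases, and 36 copies contained coding bases of the started transcript. A read on a copy can therefore come from the gene's own exon, from an intron or from the element, and these sources cannot be told apart in the deposited values.

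Stretches of DNA directly before a start are shown for 4 genes, each because a result below turns on that copy or its sequence relatives. All 4 lie wholly inside TE copies of the set and overlap no annotated exon. They are read 5′ to 3′ on the strand of the gene from RefSeq promoter windows (GRCm38.p6), with CG dinucleotides in capitals. The first belongs to 2010005H15Rik, which RefSeq calls Csta2, at chr16:36221312-36221467 (plus strand). The second belongs to Apobec1 at chr6:122602445-122602644 (minus strand). The other two belong to Gm4340 at chr10:104193842-104194041 (plus strand) and Nxf7 at chrX:135598782-135598981 (minus strand), which come from the second largest group of copies with alike sequence.
2010005H15Rik: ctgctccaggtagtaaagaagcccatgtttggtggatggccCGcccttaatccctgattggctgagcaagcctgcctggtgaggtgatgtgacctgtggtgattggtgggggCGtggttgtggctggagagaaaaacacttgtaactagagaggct
Apobec1: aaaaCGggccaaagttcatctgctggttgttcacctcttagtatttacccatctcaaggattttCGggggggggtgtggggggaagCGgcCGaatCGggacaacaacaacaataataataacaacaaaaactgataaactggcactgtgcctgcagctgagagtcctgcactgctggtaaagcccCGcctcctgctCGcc
Gm4340: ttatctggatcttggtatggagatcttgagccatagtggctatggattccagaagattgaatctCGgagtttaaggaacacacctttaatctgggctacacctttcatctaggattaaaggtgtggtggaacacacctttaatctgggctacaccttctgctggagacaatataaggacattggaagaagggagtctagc
Nxf7: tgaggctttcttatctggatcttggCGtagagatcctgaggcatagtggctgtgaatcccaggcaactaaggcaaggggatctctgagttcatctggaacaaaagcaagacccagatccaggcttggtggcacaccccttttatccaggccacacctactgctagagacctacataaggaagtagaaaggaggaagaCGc

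The stretches held 2 CG dinucleotides in 156 bases before the 2010005H15Rik start, 7 in 200 before Apobec1, 1 in 200 before Gm4340 and 2 in 200 before Nxf7. Over the 61 RefSeq promoter windows whose start lies in a copy of the set, the 250 bases before the start had a median GC content of 46.0% and 0.8 CG per 100 bases. The same medians over all 32851 windows of that table were 52.4% and 2.4. The letters TATAAA, searched on both strands in the 50 bases before the start, were found in 5 of the 61 windows (8.2%) and in 1151 of all windows (3.5%). Those 5 starts belong to Serpina3a, Dennd6a, Tdrd7, Nxpe4 and Rhox12, and none of their copies or genes passed the test described below. Such a match is a description of these letters and not of a working site.

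A pair of coding stretches shows that a copy and a gene can be the same sequence. The single annotated transcript of Gm21962 lies wholly inside a TE copy, as do those of a few other predicted genes. The first stretch below is chr3:137671524-137671673 (plus strand) of Gm21962 and the second is chr16:82828781-82828930 (plus strand) of Gm21833, both from GENCODE M21 transcripts, with the 8 bases at which they differ in capitals. Over the 150 bases shown they were 94.7% identical. Reads that cross none of the differing bases could be placed at more than 1 site. How such reads were assigned is not given in the sources used here.
Gm21962: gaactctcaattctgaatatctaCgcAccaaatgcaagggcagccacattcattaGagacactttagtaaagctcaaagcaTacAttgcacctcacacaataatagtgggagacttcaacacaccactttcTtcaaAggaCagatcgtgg
Gm21833: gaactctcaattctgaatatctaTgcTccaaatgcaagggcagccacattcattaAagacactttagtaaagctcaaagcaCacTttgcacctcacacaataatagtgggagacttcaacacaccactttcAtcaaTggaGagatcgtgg

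Values below are reads divided by a size factor of the library, as deposited, and the TE table and the gene table were scaled separately. Total reads were 1974504 to 2511317 over TE copies in het and 2868024 to 3703419 in KO, against 28363683 to 32816861 over genes. Morc1, the targeted gene, was at 7248, 7485 and 4126 in het and at 1360, 1343 and 1794 in KO. The KO mean was 23.8% of the het mean, and the groups did not overlap (exact two-sided permutation p = 0.1, the smallest 3 against 3 allows). All 10 germ cell markers were measured, with a summed level of 135700 to 208600 in het and 149700 to 208900 in KO. The 5 Leydig cell markers summed to 24920 in het library 3 and to 510 to 1079 in the other 5 libraries. The 7 Sertoli cell markers summed to 17540 to 37260 in het and 12580 to 18100 in KO, and all 7 had lower means on the log scale in KO with none passing the test. In bulk samples fewer cells of a type and less RNA per cell cannot be told apart. The part of these other cells in the results below was not tested, and values without het library 3 are given where they matter.

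Of the 421 copies, 128 had a mean of at least 10 and were tested, with limma on log2(value + 1) over all 49781 such copies of the table. In KO 7 of the 128 were higher (5.47%) and 5 were lower (3.91%) at an adjusted p under 0.05. Over all tested copies 15.6% were higher and 0.735% were lower, together 16.3%. The copies at protein-coding starts thus held a smaller share of higher calls than the table as a whole, and 5 of the table's 366 lower calls. Their median log2 fold change was -0.43, with 36 positive and 92 negative, against 0.03 over all tested copies. With the TE values rescaled by the size factors of the gene table, the median of all tested copies moved from 0.03 to 0.38, the median of the set to -0.10, and the calls to 8 higher and 3 lower. Because the filter acts on the mean over all libraries, 12 of the 128 had a het mean under 10 and 23 had a KO mean under 10. Among the called copies, those at Gm21962, 2010005H15Rik, Reg2 and Cldn34c1 had a het mean under 10. Those at Lss and Tmeff2 had a KO mean under 10. Such copies were tested only because of the genotype in which they were high, so passing the filter and the call are not independent. The other 293 copies had means from 1.29 to 9.93 (median 3.44) and were not tested.

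Complete separation of the genotypes was found for 35 tested copies, counted as 13 with every KO library above every het library and 22 with every KO library below. That is 27.3% of the 128, close to the 30.3% of all tested copies that did not overlap. In the whole TE data 22.8% of tested copies lay above and 7.58% below. Summed over all 421 copies, there were 27.5, 26.2 and 29.6 reads per 100000 gene reads in het libraries 1 to 3 and 33.8, 37.9 and 34.0 in KO libraries 1 to 3. The means were 27.8 ± 1.72 (SD, n = 3) and 35.3 ± 2.34 (SD, n = 3), and no KO library fell below a het library. Per 100 reads on all TE copies the order turned, with 0.421, 0.435 and 0.340 reads in het against 0.378, 0.291 and 0.361 in KO. On that scale the means were 0.399 ± 0.0514 and 0.343 ± 0.0464 (SD, n = 3), and the genotypes overlapped. The direction of the summed reads therefore depends on what they are set against. In unscaled reads, the 12 copies called higher or lower, picked by their difference, held a mean of 624 in het and 2615 in KO. All other copies of the set held 8048 ± 311 and 8257 ± 491 (SD, n = 3), with overlapping genotypes.

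The counts of higher copies differed by copy length, as they did over the whole table. Of the 10 copies over 5000 bp, 8 were tested, all 8 had a positive log2 fold change, 4 were higher and the median was 2.05. Among all tested copies of that length, 58.3% were higher and 0.208% lower, with a median of 2.44. Of 77 tested copies up to 500 bp, 2 were higher (2.6%) and 2 were lower (2.6%), with a median of -0.45. Among all tested copies up to 500 bp, 3.73% were higher and 0.719% lower, with a median of -0.22. Over 500 and up to 1000 bp, 25 were tested, with 0 higher, 1 lower (4%) and a median of -0.53, against 7.14% higher, 0.962% lower and -0.13 in all. Over 1000 and up to 5000 bp, 18 were tested, with 1 higher (5.56%), 2 lower (11.1%) and a median of -0.38, against 16.9% higher, 1.06% lower and 0.25 in all. In each of the 4 length classes the share of higher calls was below that of all tested copies, a difference that was not tested. These shares rest on few calls, and up to 500 bp and over 5000 bp they were close to those of all tested copies. Among all tested copies that overlap an annotated exon, 3.71% were higher, with 1.34%, 3.24%, 8.63% and 46.8% in these classes by rising length. Beside these, the share in the set was larger up to 500 bp and over 5000 bp and smaller in between, also without a test. With so few calls in each class, neither comparison is read as a trait of the set.

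**Figure D1:**
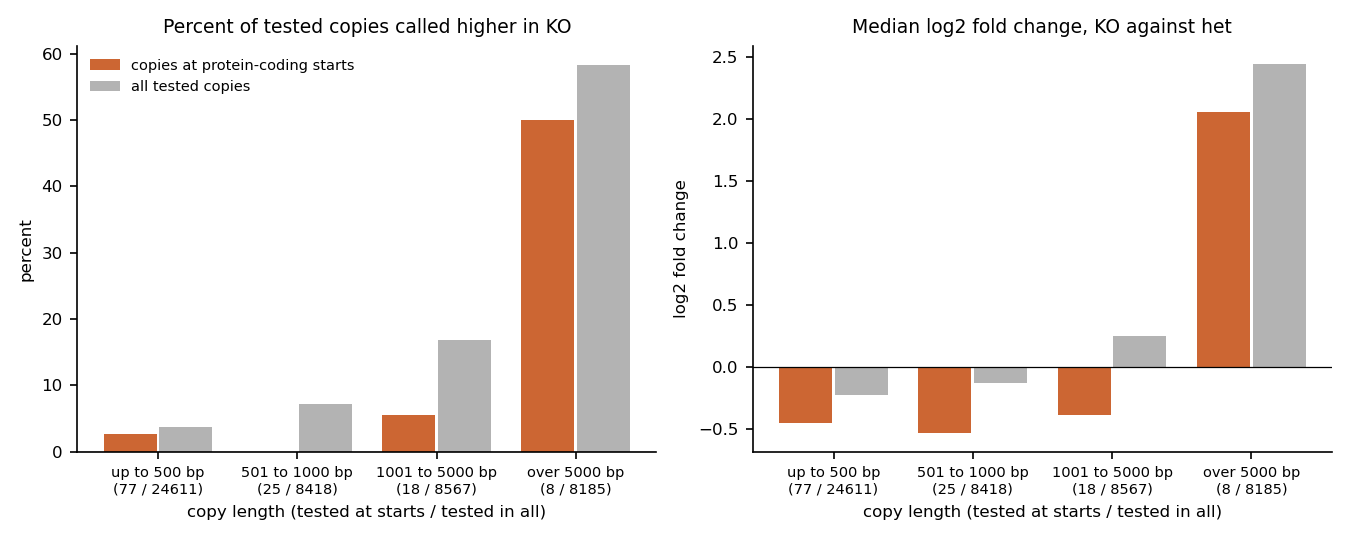
Left, percent of tested copies higher in KO (limma, adjusted p under 0.05), and right, median log2 fold change, by copy length, for copies at protein-coding starts (orange) and all tested copies (grey). Numbers under each class are the tested copies in each set, and over 5000 bp the orange bars stand at 50% and 2.05.

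Copies at other positions of genes are set beside these counts. Of 490 copies with a protein-coding start on the opposite strand, 178 were tested, 14 were higher and 2 lower, with a median of -0.21. Of 4410 copies in a protein-coding exon that hold no such start, 1969 were tested, 24 were higher and 6 lower, with a median of -0.22. Copies at lincRNA starts, 98 of 301 tested, had 16 higher and 2 lower with a median of -0.05. Within the set, 5 of 76 tested copies that start a transcript annotated as protein-coding were higher and 2 lower, against 2 higher and 3 lower of 52 that start none. Of 52 at the most upstream start of the gene, 3 were higher and 1 lower, against 4 and 4 of 76 at a later start. Where all transcripts of the gene start in the copy, 1 of 15 tested copies was higher, the Gm21962 copy. No test of the differences between these classes was made.

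Of the 7 higher copies, 3 lie over the first annotated start of their gene and 1 at a start close to it. The copy at Gm21962 (chr3:137668308-137674706, plus strand, 6399 bp) contains the whole 1017-base transcript of this predicted gene. It was at 0, 2.24 and 2.88 in het and at 194, 183 and 53.0 in KO. The log2 fold change was 5.74 ± 0.74 (SE, limma adjusted p = 0.000666). All KO libraries were far above all het libraries, and KO library 3 was the lowest of the KO group. The gene itself was listed at 0 in het and at 11.9, 8.27 and 0 in KO, too low to be tested. Its KO mean was 2.32-fold above a floor of 3 reads in each het library, although KO library 3 was at 0 like het.

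Tmc2 encodes a transmembrane channel-like protein known from mechanotransduction in inner ear hair cells. Its 181 bp copy (chr2:130195032-130195212, plus strand) was at 21.1, 11.2 and 27.8 in het and at 672, 684 and 961 in KO (log2 fold change 5.27 ± 0.41, limma adjusted p = 0.000268). The abutting upstream copy, which holds no start, was at 0, 0 and 3.83 against 87.8, 111 and 127. Within 10 kb of the Tmc2 copy 4 other copies were tested, the abutting one among them, and all 4 were higher. The gene rose from 54.9 ± 18.9 to 1677 ± 368 (SD, n = 3; log2 fold change 4.94, limma adjusted p = 0.000285).

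At 2010005H15Rik, whose RefSeq name Csta2 places it among the cystatins, inhibitors of cysteine proteases, 2 abutting copies each hold a start. The downstream copy (chr16:36221558-36221828, plus strand) holds the start of a protein-coding transcript 94 bases after the first start of the gene. It was at 0, 0 and 1.92 in het and at 42.0, 18.6 and 84.7 in KO, a log2 fold change of 4.86 ± 0.95 (SE, limma adjusted p = 0.00478). The upstream copy (chr16:36221269-36221557), in which the printed stretch lies, was at 0, 2.24 and 0.958 against 17.2, 3.10 and 24.0 and was too low to be tested. KO library 2 was the lowest of the KO group in both copies, and neither copy overlapped between genotypes. The gene was at 17.2, 11.6 and 32.2 in het and at 527, 196 and 833 in KO (log2 fold change 4.50 ± 0.56, limma adjusted p = 0.0101), with the same library lowest. Without KO library 1 or KO library 3 the call of the gene was lost (limma adjusted p = 0.098 and 0.0841), as it was without the trend (0.0571), while that of the copy held.

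Reg2 encodes a secreted lectin-like protein of the Reg family. Its copy (chr6:78395386-78401471, plus strand, 6086 bp) contains the first start of the gene at base 238 of the element. The copy was at 8.44, 1.122 and 17.3 in het and at 63.9, 146 and 69.3 in KO (log2 fold change 3.61 ± 0.75, limma adjusted p = 0.00671). The groups were well separated, and without KO library 2 the adjusted p was 0.052. Only 4.17% of the copy is exon of Reg2, and in KO it held 159 to 330 reads per 100 reads of the gene. The gene was at 4.77, 5.80 and 0 in het and at 32.7, 58.9 and 49.97 in KO, a log2 fold change of 3.79 with a limma adjusted p of 0.156 and a DESeq2 adjusted p of 0.0027.

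The other 3 higher copies lie at a downstream start inside their gene. Lgmn encodes legumain, a lysosomal asparaginyl endopeptidase, and its copy (chr12:102406086-102412775, minus strand, 6690 bp) holds the start of a retained-intron transcript 33667 bases after the first start. It was at 92.8, 101 and 204 in het and at 892, 1124 and 737 in KO (log2 fold change 2.85 ± 0.39, limma adjusted p = 0.000858). Het library 3 was the highest of its group and still below every KO library. Lgmn itself was at 8315 ± 1451 in het and 10190 ± 2343 in KO (SD, n = 3), with overlapping groups and a limma adjusted p of 0.896. Gene exons make up 0.91% of this copy.

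The BC035947 copy (chr1:78497545-78504690, minus strand), the longest of the set at 7146 bp, was at 21.1, 29.2 and 15.3 in het and at 70.6, 48.8 and 112 in KO. Its log2 fold change was 1.74 ± 0.48 (limma adjusted p = 0.0284), and the gene, at 12.4, 22.2 and 0 against 39.6, 28.9 and 86.2, did not pass (adjusted p = 0.631). Cldn34c1 belongs to the claudins, proteins of tight junctions. Its copy (chrX:123116894-123118067, plus strand, 1174 bp) was at 0, 2.24 and 2.88 against 21.9, 14.7 and 42.8 (log2 fold change 3.43 ± 0.94, limma adjusted p = 0.0267). The gene was at 3.81, 3.86 and 9.75 against 25.7, 33.1 and 47.0 (limma adjusted p = 0.281). In all 4 of these series every KO library was above every het library. Leaving out KO library 1, KO library 3 or het library 1 ended both copy calls, with limma adjusted p from 0.0515 to 0.115. The BC035947 copy also missed the threshold with edgeR (adjusted p = 0.0599), with limma without the trend (0.0763) and without the filter on low values (0.0891), and the Cldn34c1 copy with a pseudocount of 0.1 (limma adjusted p = 0.0918).

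**Figure D2:**
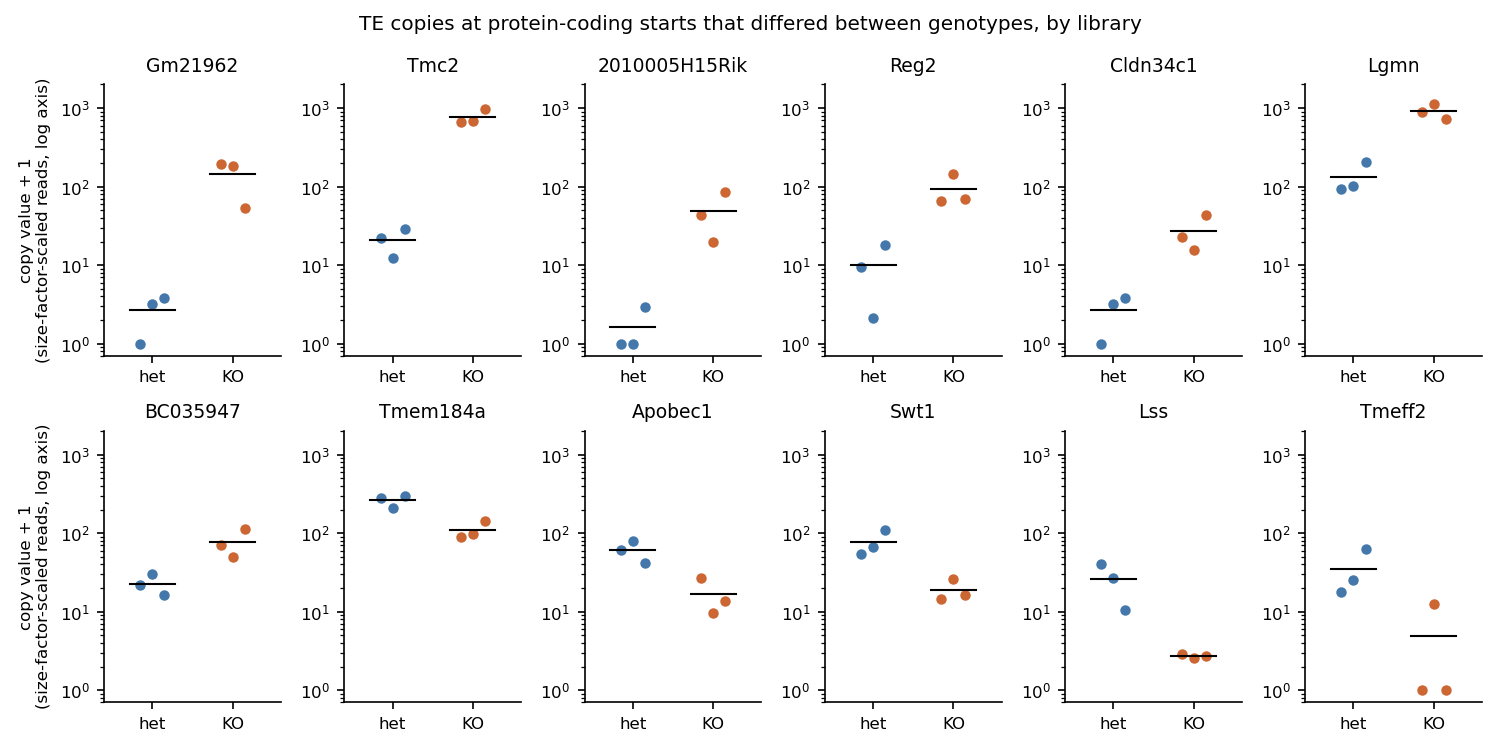
Value of each of the 12 copies that differed between genotypes, as size-factor-scaled reads plus 1 on a log axis, in the 3 het (blue) and 3 KO (orange) libraries, each named by the gene it starts, with bars at the group means. The 7 higher copies run from Gm21962 to BC035947 and the 5 lower ones from Tmem184a to Tmeff2, and no copy overlaps between genotypes.

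Apobec1 had the broadest cover of annotated starts among the lower copies. It encodes the cytidine deaminase that edits apolipoprotein B mRNA. The copy (chr6:122601858-122602858, minus strand) contains the starts of 6 of its 9 transcripts, 5 of them protein-coding, and includes the printed stretch. It was at 60.1, 78.5 and 40.3 in het and at 25.8, 8.51 and 12.8 in KO, so that the genotypes did not overlap. The log2 fold change was -1.94 ± 0.54 (SE, limma adjusted p = 0.0289). The gene did not follow, at 131 ± 39.5 in het and 132 ± 29.3 in KO (SD, n = 3; log2 fold change 0.03, limma adjusted p = 0.993). For 100 reads of the gene, the copy held 38.8, 40.9 and 46.7 reads in het and 20.8, 10.9 and 9.04 in KO, with no overlap. Set against the reads of the gene, reads on this copy were thus fewer in KO, which is given as a description without a test. Reads on the copy need not be Apobec1 reads, so this ratio is not a share of the gene. The copy call was lost without het library 1 or 2 or KO library 2 or 3 (limma adjusted p from 0.0771 to 0.128), without the trend (0.0629) and without the filter on low values (0.078).

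The other 4 lower copies lie inside their genes, away from the first start. Lss encodes lanosterol synthase of the cholesterol pathway, and its 88 bp copy (chr10:76551173-76551260, plus strand) was at 39.0, 25.8 and 9.59 in het and at 1.91, 1.55 and 1.71 in KO (log2 fold change -3.05 ± 0.88, limma adjusted p = 0.0348). Lss itself was at 8139, 6395 and 3676 against 1607, 2609 and 855, also without overlap. Its log2 fold change was -1.91, with a limma adjusted p of 0.101 and a DESeq2 adjusted p of 0.000602. Both copy and gene were lowest, within het, in library 3. Within 10 kb of the Lss copy 3 other copies were tested, of which 2 were lower and 0 higher. Of the 6 fits with 1 library left out, only that without het library 3 kept the copy call (limma adjusted p of the others from 0.059 to 0.407), and with a pseudocount of 0.1 it was also lost (0.0646).

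Swt1 encodes a nuclear RNA endoribonuclease, and its copy (chr1:151412967-151415046, minus strand, 2080 bp) was at 53.8, 65.1 and 108 in het and at 13.4, 24.8 and 15.4 in KO (log2 fold change -2.01 ± 0.48, limma adjusted p = 0.0137). The gene was at 2513 ± 176 and 2411 ± 318 (SD, n = 3) and overlapped. Only 0.62% of this copy is exon of Swt1, and it held 2.04 to 4.06 reads per 100 gene reads in het and 0.673 to 1.24 in KO. Tmem184a, a transmembrane protein gene, has a 103 bp copy (chr5:139807897-139807999, minus strand) at 277, 209 and 297 in het and 87.8, 97.5 and 143 in KO (log2 fold change -1.26 ± 0.36, limma adjusted p = 0.0326). The gene lay at 1976 ± 558 against 1160 ± 219 (SD, n = 3; limma adjusted p = 0.53), and copy reads per 100 gene reads overlapped, at 11.7 to 13.5 in het and 9.74 to 11.9 in KO. Copy and gene were thus both low in KO at Tmem184a, with no difference in copy reads per 100 gene reads between the groups beyond their spread.

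Tmeff2, which encodes a transmembrane protein with follistatin-like and EGF-like domains, has a 965 bp copy (chr1:50909275-50910239, plus strand) that was at 16.9, 24.7 and 61.3 in het and at 0, 11.6 and 0 in KO. The log2 fold change was -3.72 ± 1.10 (SE, limma adjusted p = 0.0395), and the gene was at 1075 ± 203 against 918 ± 354 (SD, n = 3), overlapping. Leaving out any library but KO library 2 ended this call (adjusted p from 0.0956 to 0.185), as did leaving out any but KO library 3 for Tmem184a (0.0573 to 0.128), and KO library 1 for Swt1 (0.0567). With the gene size factors the Tmeff2 and Tmem184a copies also missed the threshold (limma adjusted p = 0.0623 and 0.127). So did Tmeff2 with edgeR (adjusted p = 0.119) and with a pseudocount of 0.1 (limma adjusted p = 0.0983), and Tmem184a with limma without the trend (0.159).

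**Figure D3:**
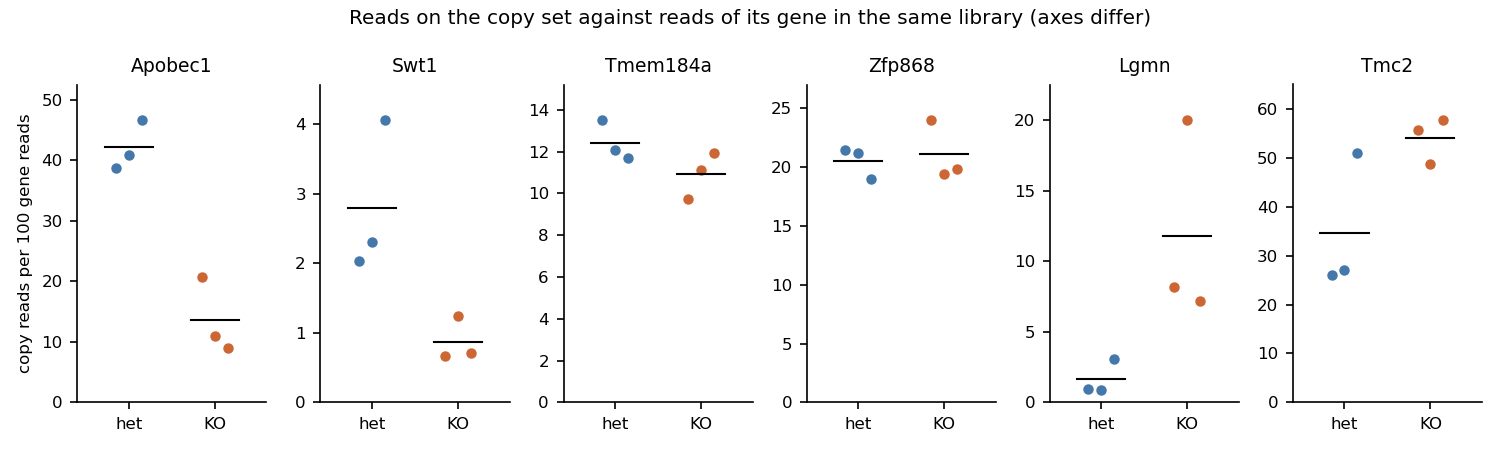
Reads on the copy per 100 reads of its gene in the same library, for 3 het (blue) and 3 KO (orange) libraries with bars at the group means and axes that start at 0 and differ between panels. Apobec1 and Swt1 lie lower in KO and Lgmn higher, without overlap between groups, while Tmem184a and Zfp868 overlap, and Tmc2 overlaps through het library 3 at 50.9.

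The copies with the most reads in het did not differ. Eif4g2, a translation initiation factor, had a 74 bp copy, 91.9% of it exon, at 1317, 1613 and 480 across het against 1694, 499 and 879. The copies at Zfp868, a zinc finger gene, at Ash2l, a subunit of histone H3 lysine 4 methyltransferase complexes, and at Tgfbr1, the type I receptor of TGF-beta, ranged from 188 to 586 in het and from 118 to 474 in KO. The copy at the predicted gene Gm8797 was at 324, 306 and 352 against 344, 241 and 666. All 5 overlapped between genotypes, with limma adjusted p from 0.568 to 0.914. Fv1, a restriction factor gene that itself descends from a retroviral gag sequence, has its only annotated start in a copy at 100, 111 and 35.5 in het and 89.7, 41.0 and 36.8 in KO.

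Of the 408 genes started by these copies, 400 were listed in the gene table and 386 were tested, over all 26005 genes with a mean of at least 10. In KO 6 were higher (1.55%) and 1 was lower (0.259%), against 0.431% and 0.0423% of all tested genes, together 0.473%. The 1 lower gene was Morc1, the targeted gene, so the share of lower calls says nothing about the other started genes. The median log2 fold change of the 386 was 0.01, with 203 positive and 183 negative, and that of all tested genes was -0.02. Every KO library lay above every het library for 40 of the 386 and below for 21, together 15.8%. Over all tested genes 7.17% lay above and 5.57% below, so that 12.7% did not overlap. DESeq2 on the recovered reads called 14 higher and 3 lower, where it called 400 higher and 65 lower among all genes.

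The 6 higher genes were Tmc2 and 2010005H15Rik, given above, and AA792892, A630010A05Rik, Adtrp and Ccdc28a. The last 4 differ from the first pair in their copies, which were too low to be tested and overlapped between genotypes. AA792892 was at 0, 1.93 and 3.90 in het and at 39.6, 271 and 166 in KO (log2 fold change 5.66 ± 0.89, limma adjusted p = 0.0272). Its copy (chr5:94377034-94377526, plus strand) was at 1.05, 8.97 and 0.958 against 6.68, 12.4 and 5.99, and it lies 37568 bases after the first start of the gene. Few of the reads that separate the genotypes at AA792892 were therefore on this copy.

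A630010A05Rik was at 43.9, 59.9 and 57.5 in het and at 346, 338 and 470 in KO (log2 fold change 2.81 ± 0.31, limma adjusted p = 0.00638), with its copy at 0, 5.61 and 5.75 against 5.72, 20.1 and 4.28. Adtrp encodes an androgen-dependent regulator of tissue factor pathway inhibitor, and it was at 589, 585 and 709 against 1997, 2244 and 3635 (log2 fold change 2.02 ± 0.27, limma adjusted p = 0.011). Ccdc28a, a coiled-coil protein gene, was at 537, 510 and 581 against 1631, 1587 and 2364 (log2 fold change 1.75 ± 0.24, limma adjusted p = 0.0121). The copies at Adtrp and Ccdc28a held at most 7.70 in any library, and for all 3 genes every KO library was above every het library. The calls of these 3 genes, of AA792892 and of Morc1 did not hold without KO library 1 or without KO library 3 (limma adjusted p from 0.0517 to 0.232). Some were also lost without het library 1 (AA792892, Adtrp, Ccdc28a and Morc1, 0.0505 to 0.0583), het library 2 (Ccdc28a, 0.0565) or KO library 2 (AA792892, 0.154). Without the trend AA792892, Adtrp, Ccdc28a and Morc1 missed the threshold (limma adjusted p from 0.0705 to 0.089), and AA792892 did so with a pseudocount of 0.1 (0.127).

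Morc1 is itself among the started genes and was the 1 that fell (log2 fold change -2.03 ± 0.27, limma adjusted p = 0.0109). A 320 bp copy (chr16:48479402-48479721, plus strand) holds the start of a non-coding processed transcript of Morc1, 48395 bases after the first start. It was at 1.05, 4.49 and 10.54 in het and at 0 in all KO libraries, too low to be tested and at least 2.08-fold lower with 3 reads in each KO library as the floor. Where the Morc1 allele is disrupted is not given in the sources used here.

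**Figure D4:**
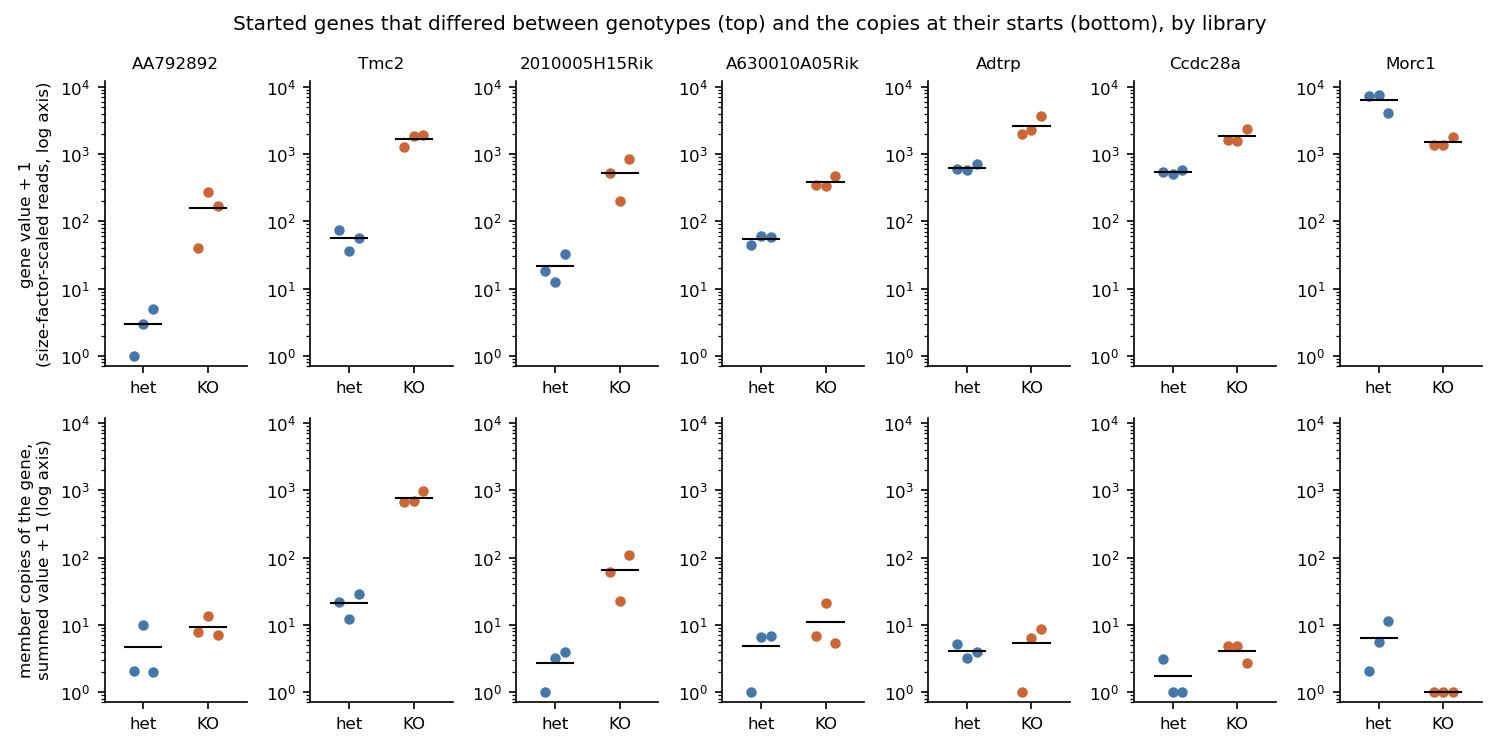
Top, size-factor-scaled reads plus 1 on a log axis for the 7 started genes that differed between genotypes, in 3 het (blue) and 3 KO (orange) libraries with bars at the means. Bottom, the summed value plus 1 of the copies at their starts, which rises with the gene at Tmc2 and 2010005H15Rik and stays under 25 in every library for the other 5.

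Copy and gene were both measured well enough to be tested in 124 pairs. The values come from the same libraries, and a read in a first exon inside a copy may count for both, so the 2 sets of values are not independent. In 2 pairs copy and gene were both higher, at Tmc2 and at 2010005H15Rik, whose copy passed the filter only through its KO values. In 4 pairs the copy was higher and the gene missed the threshold (Reg2, Cldn34c1, Lgmn and BC035947), and in 5 the copy was lower and the gene missed it (Tmeff2, Lss, Swt1, Apobec1 and Tmem184a). In the remaining 113 neither passed. No gene started by a tested copy that was not called had a call of its own, and 6 of the 293 pairs with an untested copy had a called gene. Whether copy and gene differ in their response was not tested.

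**Figure D5:**
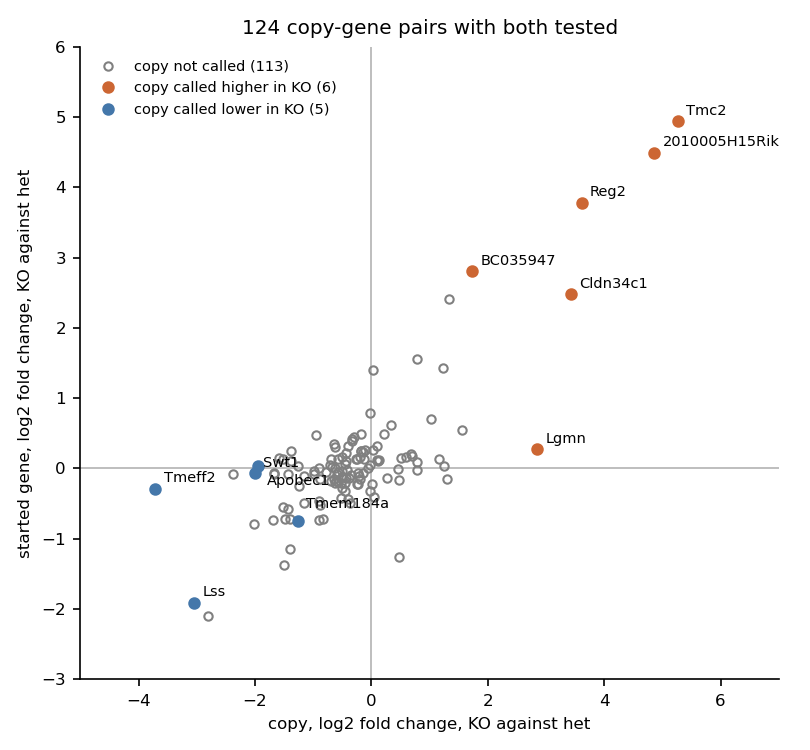
Log2 fold change of the started gene (vertical) against that of its copy (horizontal), KO against het, for the 124 pairs with both tested, with the 6 higher copies in orange, the 5 lower ones in blue and the 113 others as open circles. Tmc2 and 2010005H15Rik lie high on both axes, while Lgmn has a copy at 2.85 and a gene at 0.28, and Apobec1 and Swt1 have copies near -2 and genes near 0.

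Shared sequence joined some of the copies. In pairwise BLAST of the first-exon stretches inside the copies, 165 of the 421 matched at least 1 other over 50 or more bases, and they fell into 20 groups. The largest group had 45 copies with a median identity of 81.1%, at genes such as Nrf1, Me1, Spin1 and Msh6. Of its copies 8 were tested and none was called (median log2 fold change -0.61), and none of its 45 genes was called. The second group had 39 copies at 38 genes with a median identity of 89.9%, among them AA792892, Abcb5, Tmem132c, Tdpoz1, Atf7ip and the printed Gm4340 and Nxf7. None of its 7 tested copies was called, and of 32 tested genes only AA792892 was called. Over all tested copies 16.3% were called, or 4.45% of those up to 500 bp, and over all tested genes 0.473%. With so few tested features, the counts in these groups are not read as a result about their sequence.

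Within the second group, the stretch before the start of Gm4340 was 100% identical to that of Gm21312 over 250 bases and to that of Gm20765 over 249. These 3 predicted genes lie on chromosome 10. Aligned to the same stretch of Nxf7, Gm4340 was 70.5% identical over 227 bases. The copies at all 3 genes held no read in het. In KO the Gm4340 copy was at 2.86, 1.55 and 14.5, the Gm20765 copy at 0, 17.0 and 4.28, and the Gm21312 copy at 0, 9.29 and 7.70. These levels are under the limit for testing, and the KO means were 1.81-fold to 2.27-fold above a floor of 3 reads in each het library. With such sequences, the 3 copies cannot be taken as independent measurements. The 2 copies at Tmem132c held the same reads in every library, 0, 3 and 3 in het and 0, 7 and 0 in KO. Over the whole table, 2 of 30404 copies with at least 100 reads had the same reads in all 6 libraries as another copy. The Tmem132c copies were far under that number of reads, so this count does not show how unusual their match is.

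The seventh group held the copies at Gm21962, Gm21833, Gm21897, Gm17555 and Tmeff2. The Gm21962 copy was higher and the Tmeff2 copy lower, but their stretches had no direct match to each other. Tmeff2 joined the group only through Gm17555, Gm21833 and Gm21897, at 74.1% to 75.5% identity over 286 bases. The stretches of the Gm genes were 92.9% to 97.2% identical to each other. Gm21897 was at 3.16, 2.24 and 0 in het and at 13.4, 6.97 and 6.84 in KO, while Gm21833, at 6.33, 5.61 and 1.92 against 18.1, 3.10 and 10.3, and Gm17555, at 0, 2.24 and 1.92 against 2.86, 1.55 and 11.98, overlapped.

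Genes of TE silencing were followed as a list of 30, all tested. Morc1, the targeted gene, was lower and none was higher, where 0.473% of all tested genes were called. The median log2 fold change of the list was 0.06. Trim28, the corepressor of KRAB zinc finger proteins, and Atf7ip, a partner of the H3K9 methyltransferase SETDB1, have a start in a copy of the set. Trim28 was at 6712 in het and 6633 in KO and Atf7ip at 3635 and 3968, as means of 3 libraries with overlapping groups. The Atf7ip copy was at 23.2, 5.61 and 28.8 in het and 20.03, 21.7 and 11.98 in KO, also overlapping.

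Of 21 genes of the mouse 2-cell stage, several of which are known to start in a long terminal repeat, 15 were listed and 10 tested. None was called, and the median log2 fold change was 0.14. Of these, 3 have a start in a copy of the set: Abcb5, at 33.4, 45.4 and 28.3 against 72.2, 52.7 and 141, Tmem132c, at 177, 158 and 186 against 197, 298 and 235, and Tdpoz1, at 0, 1.93 and 2.93 against 0, 3.10 and 26.5. Abcb5 and Tmem132c lay higher in every KO library without passing the test (limma adjusted p = 0.645 and 0.848). None of their copies reached the limit for testing.

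A list of 6 genes known to have a TE-derived start in the mouse was also followed, and none was called. Naip5 and Naip6, intracellular receptors of the NAIP family that sense bacterial proteins, have such a start in the set. Naip5 was at 112, 115 and 207 in het and at 429, 373 and 599 in KO, without overlap (log2 fold change 1.72, limma adjusted p = 0.0702). The only annotated start of Naip5 lies in a 183 bp copy that was at 4.22, 6.73 and 3.83 in het and at 0 in every KO library. That is at least 1.91-fold lower by a floor of 3 reads in each KO library. In these libraries the gene value was higher and the value on its annotated start lower in KO. Neither difference is a call, as the gene missed the threshold and the copy was too low to be tested. This copy was picked after its values were seen. Over the set, 7 copies held no read in any KO library and 12 held none in any het library. Naip6 was at 72.5, 65.7 and 119 against 59.4, 42.4 and 49.0, with a limma adjusted p of 0.822. The gene with the most reads on an untested copy that was at 0 throughout KO was Sel1l2, with its copy at 12.7, 14.6 and 9.59 in het and at least 4.75-fold lower in KO.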

How the data were processed

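RNA-seq values of 3 Morc1 (+/-) and 3 Morc1 (-/-) libraries of gonocytes at postnatal day 0 were used. The deposited TE and gene tables hold signal values, reads divided by a size factor of the library. Per the submitters' processing notes, bcl2fastq 2.20, cutadapt 1.18, HISAT2 2.1.0, featureCounts 1.5.2 and DESeq2 1.26.0 were used with mm10/GRCm38. Strand and multi-mapping settings are not given in the sources used here, so overlapping and antisense reads cannot be told apart, and near-identical copies are uncertain. Steps of the values gave whole reads for 100% of values (tolerance 0.01 reads). Features whose mean over the 6 libraries reached 10 were fitted as log2(value + 1) with limma 3.58.1 (trend, two-sided, Benjamini-Hochberg over all tested features), and fold changes on that scale understate low features. edgeR 4.0.16 called 6479 copies higher and 352 lower, and 121 genes higher and 8 lower, on the recovered reads, and DESeq2 1.42.0 was a second alternative. Transcript starts came from GENCODE M21, sequences from RefSeq windows and GENCODE transcripts, and first-exon stretches were compared with BLAST+ 2.17.0 (e-value up to 1e-05). Of 35666 gene names, 35560 matched GENCODE.

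Copies named with values in every library are all those called, those of called genes and the 5 most abundant in het. Genes named are those they start. Other named copies (the printed sequences' relatives, the motif matches, Fv1, Naip5, Naip6, Atf7ip and Sel1l2) were chosen after their values were seen. The copies and gene lists were chosen with earlier results of these data known. The scripts were tested on simulated data. Alternatives were other pseudocounts, filters, tests, scalings, start definitions and leaving out each library.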

Additional observations from a re-analysis of the deposited data

How the results depend on the processing

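The copies at Tmc2, Gm21962, 2010005H15Rik and Lgmn and the gene Tmc2 kept their calls under every alternative that tested them. The copy counts (7 higher, 5 lower) were 4 and 1 with a mean of at least 50, 4 and 2 with basic transcripts, and the lower count was 3 with gene size factors, without the trend or with a pseudocount of 0.1 and 2 with protein-coding transcripts. Their median (-0.43) was -0.10 with gene size factors and -0.20 with a mean of at least 50. Started genes (6 higher, 1 lower) were 14 and 3 with DESeq2 and 2 and 0 without the trend, and the lower count was 0 with basic or protein-coding transcripts, where Morc1 is no longer in the set. Pairs with both higher (2) were 1 without the trend and with a mean of at least 50.

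Leaving out 1 library gave 5 to 9 higher and 1 to 4 lower copies, medians from -0.56 to -0.33, 1 to 7 higher and 0 to 1 lower genes and 1 to 2 pairs. Higher genes fell to 1 without KO library 1 or 3 and to 3 without het library 1. Lower copies fell to 2 without KO library 1 or 3 and to 1 without het library 1 or 2. Without het library 3, which stands apart in its Leydig cell markers, there were 9 higher and 3 lower copies and 7 higher genes and 1 lower. Morc1 ranged from -2.31 to -1.88, and its limma adjusted p was 0.101, 0.0663 and 0.0511 without KO library 1, KO library 3 and het library 1 and 0.089 without the trend (log2 fold change -2.03). The cause of these changes was not tested, apart from fewer libraries or features in the fit.

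With the replicate block there were 6 higher and 2 lower copies and 6 higher and 2 lower genes, Lss being the added one (limma adjusted p = 0.0367). The block ended the calls of the copies at BC035947, Lss, Apobec1 and Tmem184a (limma adjusted p from 0.0512 to 0.0739). Deviations of same-numbered libraries from their group means had correlations from -0.163 to 0.138 over genes and from -0.243 to 0.146 over copies. The labels do not say whether these libraries share more than a number, and so few correlations cannot decide it.

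Signs that turned belong to features with no call. With gene size factors the copies at Eif4g2 and Ash2l turned to 0.18 and 0.08. With 1 library left out, copies ranged from -0.69 (without het library 3) to 0.28 (KO library 2) at Eif4g2, from -0.18 (KO library 3) to 0.55 at Gm8797, from -0.74 to 0.07 (het library 3) at Tgfbr1 and from -0.66 to 0.30 (KO library 2) at Ash2l. Genes ranged from -0.15 to 0.04 (KO library 1) at Swt1, from -0.23 (het library 3) to 0.22 at Apobec1, from -0.28 to 0.01 (KO library 2) at Zfp868 and from -0.08 (KO library 3) to 0.41 at Ash2l, and Tmeff2 reached 0.03 without KO library 2. Over 248 comparisons of 17 named copies, 197 kept sign and side of the threshold and 43 lost the call, and over 277 of 20 named genes these were 247 and 20. Depth left 293 of 421 copies untested.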
